A study of Mus musculus with 6 samples.

Results

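The genes described here are 9 parts of the route by which a cell receives and passes on type I interferon. They are the receptor chains Ifnar1 and Ifnar2, the receptor-bound kinases Jak1 and Tyk2, the signal transducer Stat2 and the interferon regulatory factors Irf1, Irf3, Irf7 and Irf9. They are defined by gene symbol, with no threshold on a measured value. All 9 were found among the 24421 genes of the count table, and all 9 were among the 13084 genes abundant enough to be tested. Total RNA came from 4T1-tetL1(GLucAI) cells, a stable population of the BALB/cfC3H mouse breast carcinoma line 4T1. The cells carry a recoded mouse LINE-1 (L1) element with an antisense Gaussia luciferase readout, and firefly luciferase, on a bidirectional promoter. The construct was integrated by PiggyBac and is switched on by doxycycline through a Tet-On transactivator that the EF1α promoter drives in all cells. There were 3 untreated libraries, which carry the cassette without its inducer and whose treatment tag reads vehicle, and 3 libraries from cells given doxycycline at 400 ng/mL for 48 h. No library held doxycycline-treated cells without the cassette, so an effect of the drug and an effect of L1 cannot be told apart here. The transcript of the cassette was not analysed here, and group names rest on the labels.

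Type I interferon binds a receptor made of both IFNAR chains, which brings together the kinases TYK2 and JAK1. These phosphorylate STAT proteins, among them STAT2, which joins IRF9 in the complex ISGF3 to bind interferon-stimulated response elements (ISRE) in target genes. Interferon gamma uses another receptor, with JAK1 and JAK2, and acts through gamma-activated sites (GAS), among whose targets is Irf1. IRF3, present in resting cells, and IRF7, itself an interferon target, are activated downstream of nucleic acid sensors and switch on the interferon genes. In the study, L1 was induced in these cells to see how its expression bears on the emergence of drug-resistant cells.

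Promoter windows show which of these genes have the letters that these factors read close to their start. RefSeq windows (build GRCm38, 250 bases before to 50 bases after a transcript start) were given for all 9 genes, 11 windows in all. The ISRE core (GAAA, then any 2 bases, then GAAA, searched on both strands) was in 1 of the 11 windows, that of Stat2, and in 3.44% of 32851 windows of the same length. The GAS letters TTCNNNGAA, which read the same on both strands, were in 3 of the 11, those of Irf1, Ifnar1 and Ifnar2, and in 8.3% of all windows. Such a match is a description of letters and not a shown binding site. The windows of Stat2 and Irf1 are printed as an example of each motif, chosen with the RNA levels known. Mean levels with doxycycline were above (Stat2) and below (Irf1) the untreated means, neither past the test. Ifnar1 and Ifnar2, also with lower means, have 1 GAS match each and are not printed. A second window of Irf1 has 0 matches of either motif. A link between motif and direction was not tested. Capitals mark the match, whose first base stands at position -222 from the transcript start in Stat2 (as the reverse complement of the ISRE core) and at position -90 in Irf1.
Stat2, chr10:128270248-128270547, plus strand: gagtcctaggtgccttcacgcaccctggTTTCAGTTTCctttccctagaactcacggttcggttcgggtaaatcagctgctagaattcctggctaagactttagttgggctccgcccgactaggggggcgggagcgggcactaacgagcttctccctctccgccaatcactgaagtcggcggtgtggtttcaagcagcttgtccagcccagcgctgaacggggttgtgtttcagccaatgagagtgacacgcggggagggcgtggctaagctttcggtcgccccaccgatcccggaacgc
Irf1, chr11:53769764-53770063, plus strand: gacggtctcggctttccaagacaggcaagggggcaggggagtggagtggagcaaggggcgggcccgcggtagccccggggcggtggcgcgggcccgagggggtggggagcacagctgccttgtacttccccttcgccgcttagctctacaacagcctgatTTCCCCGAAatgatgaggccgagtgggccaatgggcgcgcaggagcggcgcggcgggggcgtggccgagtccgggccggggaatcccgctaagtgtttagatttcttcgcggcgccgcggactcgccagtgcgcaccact

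Of the 9 genes, 0 were called higher and 0 lower in doxycycline libraries. A call needs an adjusted p under 0.05 by the quasi-likelihood test of edgeR, with Benjamini-Hochberg adjustment over all genes tested. Over all genes 3.09% were called, with 0.925% higher and 2.16% lower. At an unadjusted p under 0.05 there was 1 of the 9, Irf1, against 16.2% of all genes. DESeq2 and limma voom also called 0 of the 9, with 1 and 2 at an unadjusted p under 0.05. Untreated and doxycycline values stood apart without overlap for Ifnar2, Irf1 and Irf9, 3 of the 9, where the share over all genes was 21.3%. The log2 fold changes ran from -0.21 to 0.34, 4 above and 5 below 0. Their median was -0.006, and that of all genes was 0.002. Of all genes tested, 6641 lay above and 6443 below 0. With the sign left aside, the median log2 fold change was 0.132 for the 9 and 0.0885 for all genes. Levels are given as CPM, TMM-scaled counts relative to library size, for replicates 1, 2 and 3 in that order.

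**Figure D1:**
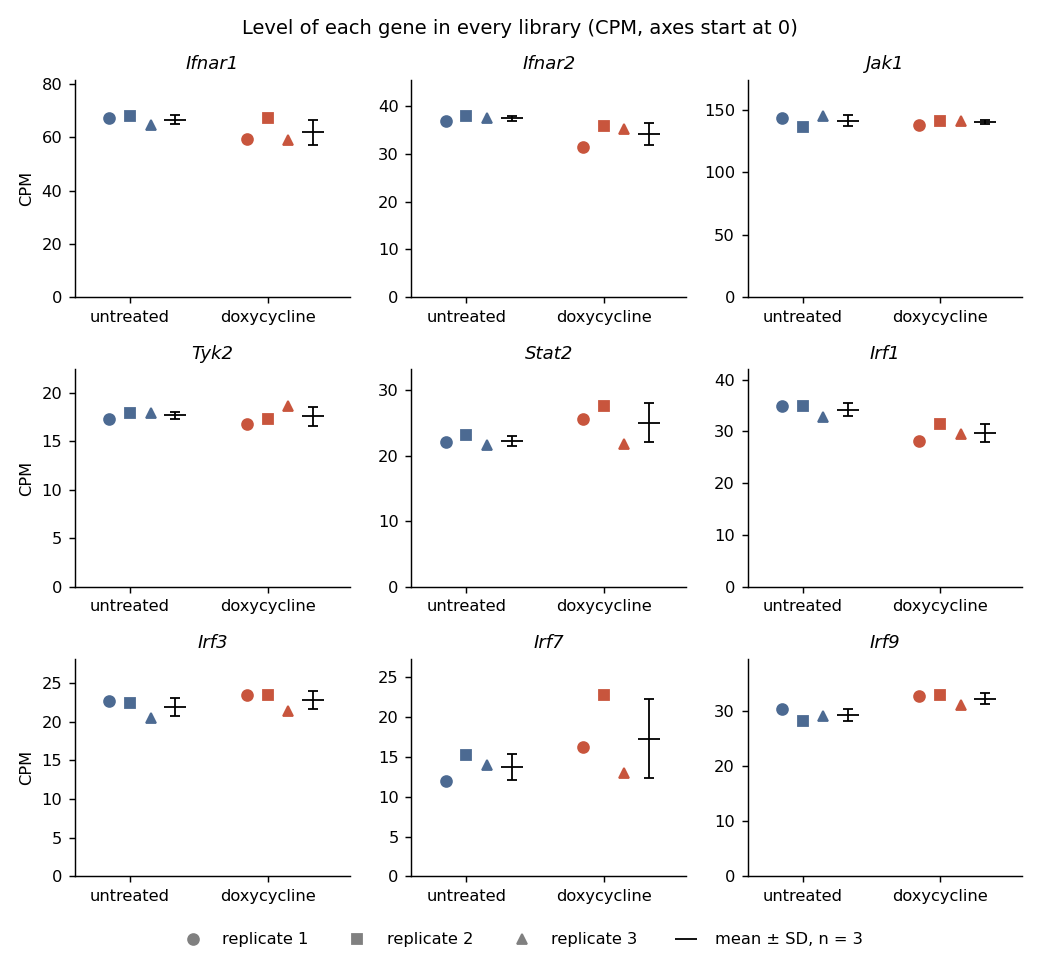
CPM of each of the 9 genes (vertical axes from 0) in the 3 untreated and 3 doxycycline libraries, with replicates as circle, square and triangle and the mean ± SD (n = 3) at the right of each group. Irf1 and Ifnar2 lie below and Irf9 above the untreated points in all 3 doxycycline libraries, and Irf7 reaches 22.7 CPM in doxycycline replicate 2.

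Transcripts of the interferons themselves were near the limit of detection. Of 21 interferon genes listed as ligands, 1 was abundant enough to be tested, Ifnk, at 0.527 ± 0.144 and 0.525 ± 0.134 CPM (SD, n = 3 each, edgeR adjusted p 0.989). The other 20 had at most 15 counts in any library, and 16 of them had 0 counts in all 6. Zero counts allow up to 0.0948 CPM in the smallest library. Ifnb1, the first type I interferon most cells make, was counted 4, 0 and 2 times in untreated cells and 2, 0 and 0 times with doxycycline. For Ifna13 the untreated libraries held 9, 1 and 4 counts and the doxycycline libraries 15, 13 and 8. In CPM the Ifnb1 groups overlapped. Those of Ifna13 did not, with 0.205, 0.03 and 0.107 CPM untreated and 0.472, 0.318 and 0.209 CPM with doxycycline. A fit with no filter on low counts did not call Ifna13 (edgeR adjusted p 0.369) or Ifnb1 (edgeR adjusted p 0.767). The Ifna genes are near-identical copies, so the counts of a single one are uncertain.

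Both receptor chains were present and had lower means with doxycycline, without passing the test. Ifnar1 (chromosome 16, 91485032 to 91510523, protein-coding), the chain that holds TYK2, had 67.3, 68 and 64.7 CPM in untreated libraries. It had 59.4, 67.4 and 59.1 CPM in doxycycline libraries. Replicate 2 lay inside the untreated range and the other two lay below it. The log2 fold change was -0.10 (SE 0.060, 95% interval -0.229 to 0.0213, edgeR adjusted p 0.414). Leaving out doxycycline replicate 2 gave -0.17 (edgeR adjusted p 0.0652) for Ifnar1, and over the 6 fits that each omitted a library it ran from -0.17 to -0.07. Ifnar2 (chromosome 16, 91372783 to 91405589, protein-coding), the high-affinity ligand-binding chain that holds JAK1, had 36.9, 37.9 and 37.4 CPM in untreated libraries. Its doxycycline libraries had 31.4, 35.8 and 35.1 CPM, all below the untreated ones. The difference was -0.13 on the log2 scale (SE 0.067, 95% interval -0.272 to 0.00822, edgeR adjusted p 0.342), so the difference was not separated from the spread between libraries. Omitting doxycycline replicate 1 gave -0.08 for Ifnar2 (edgeR adjusted p 0.608). Of its exon bases 9.92% are shared with Gm21970 on the same strand.

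The receptor-bound kinases had the log2 fold changes nearest 0 of all 9 genes. Jak1 (chromosome 4, 101151974 to 101265282, protein-coding) serves type I, II and III interferon receptors. It stood at 143, 136 and 145 CPM in untreated and at 138, 141 and 141 CPM in doxycycline libraries. All doxycycline values lay inside the untreated range. The log2 fold change was -0.01, with a 95% interval of -0.106 to 0.0855 (edgeR adjusted p 0.944). Tyk2 (chromosome 9, 21104068 to 21131393, protein-coding) had 17.3, 17.9 and 17.9 CPM in untreated and 16.8, 17.3 and 18.7 CPM in doxycycline libraries. The groups overlapped on both sides, and the log2 fold change was -0.006 (95% interval -0.181 to 0.17, edgeR adjusted p 0.983). Leaving out 1 library at a time turned its direction in 4 of 6 fits, to at most 0.03.

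Of the other receptor and kinase genes, 1 of 6 was called, and it was called lower. Jak2, the kinase that JAK1 joins at the interferon gamma receptor and that several cytokine receptors use, had 135 ± 7.26 CPM with doxycycline against 166 ± 1.8 CPM untreated (SD, n = 3 each). The groups did not overlap. The log2 fold change was -0.30 (SE 0.048, 95% interval -0.4 to -0.2, edgeR adjusted p 0.000682), and the call held in all 14 alternatives run. The chains Ifngr1 and Ifngr2 of the interferon gamma receptor had log2 fold changes of -0.11 and -0.14 (edgeR adjusted p 0.532 and 0.339). Ifnlr1, Il10rb and Jak3 were also not called. The median of the 6 was -0.10. DESeq2 and limma voom called Jak2 alone as well.

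The ISGF3 genes Stat2 and Irf9 had higher means with doxycycline, without passing the test. Stat2 (chromosome 10, 128270498 to 128292853, protein-coding) supplies the activation domain of ISGF3. It had 22.1, 23.1 and 21.6 CPM in untreated and 25.6, 27.6 and 21.8 CPM in doxycycline libraries. Replicates 1 and 2 lay above the untreated range and replicate 3 inside it. This gave a log2 fold change of 0.17 (SE 0.086, 95% interval -0.0106 to 0.345, edgeR adjusted p 0.342). Omitting doxycycline replicate 2 gave 0.09 for Stat2 (edgeR adjusted p 0.652), and omitting replicate 3 gave 0.26 (edgeR adjusted p 0.169). Irf9 (chromosome 14, 55603985 to 55610030, protein-coding) is the DNA-binding part of ISGF3. It had 30.3, 28.2 and 29 CPM in untreated and 32.7, 32.8 and 31 CPM in doxycycline libraries, all 3 above the untreated ones. On the log2 scale the difference was 0.14 (SE 0.068, 95% interval -0.000196 to 0.282, edgeR adjusted p 0.31). Of its exon bases 3.97% are shared with Rnf31 on the same strand, which differed by -0.25 on the log2 scale (edgeR adjusted p 0.245). Of 4 other STAT genes tested (Stat3, Stat5a, Stat5b and Stat6), which serve cytokine and growth factor receptors, 0 were called and 0 had an unadjusted p under 0.05 (edgeR, DESeq2 and limma voom). Stat5a had the smallest p, with 12 ± 2.24 CPM untreated and 10.7 ± 1.48 CPM with doxycycline (-0.17, edgeR adjusted p 0.553). Stat3 had 69.8 ± 2.59 and 73 ± 1.64 CPM (0.07, edgeR adjusted p 0.6). Stat4 had at most 6 counts in any library.

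The interferon regulatory factors had log2 fold changes on both sides of 0, and none was called. Irf1 (chromosome 11, 53770014 to 53778374, protein-coding) activates antigen-presentation and interferon gamma response genes and is also induced by NF-κB. It had 35, 34.9 and 32.8 CPM in untreated libraries and 28.1, 31.4 and 29.6 CPM in doxycycline libraries. All doxycycline values lay below all untreated values. The mean difference was -0.21 on the log2 scale (SE 0.069, 95% interval -0.348 to -0.0619), a level of 0.867 times the untreated one. It had an unadjusted p of 0.00719 and an adjusted p of 0.121 by edgeR, so it was not called. Without doxycycline replicate 2 it was called lower (-0.25, edgeR adjusted p 0.0305). In that fit 487 of all 13237 genes tested were called lower, against 283 of 13084 with all 6 libraries. The unadjusted p of Irf1 was under 0.05 in 14 of 14 alternatives, and its log2 fold change ran from -0.25 to -0.17.

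Irf3 (chromosome 7, 44997648 to 45002848, protein-coding), the factor that sensors activate first, had 22.7, 22.4 and 20.5 CPM in untreated and 23.4, 23.4 and 21.4 CPM in doxycycline libraries. The groups overlapped, and the log2 fold change was 0.06 (95% interval -0.109 to 0.221, edgeR adjusted p 0.79). Irf7 (chromosome 7, 141263183 to 141266499, protein-coding), which amplifies the interferon response, was the most variable of the 9. It had 11.9, 15.2 and 14 CPM in untreated libraries. In doxycycline libraries it had 16.2, 22.7 and 12.9 CPM, a 1.76-fold span within the group. Replicate 3 lay inside the untreated range. Its log2 fold change was 0.34 (SE 0.18, 95% interval -0.0684 to 0.756, edgeR adjusted p 0.403). Leaving out doxycycline replicate 2 gave 0.09 (edgeR adjusted p 0.743), and leaving out replicate 3 gave 0.52 (edgeR adjusted p 0.0612). With no filter on low counts Irf7 was called higher (0.34, edgeR adjusted p 0.0332). In that fit 210 of all 17661 genes tested were called higher, against 121 of 13084 with the filter. The SD of Irf7 on the log2 scale among doxycycline libraries was 0.41. It exceeded that of 97.8% of the 11657 genes with a mean of at least 1 CPM, whose median was 0.093.

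Of the 7 other IRF-family genes tested, 0 were called (edgeR, DESeq2 and limma voom, each with 1 at an unadjusted p under 0.05). Irf2, which competes with IRF1 at shared sites, had the smallest p, with 52.2 ± 0.571 and 46.6 ± 2.76 CPM (log2 fold change -0.16, edgeR adjusted p 0.164). Irf5 (-0.34, edgeR adjusted p 0.317) and Irf2bp2, an IRF2 corepressor (-0.10, edgeR adjusted p 0.311), followed. Of the 7, 5 had a log2 fold change below 0, against 6443 of all 13084 genes tested. No overlap between groups was seen for 4 of the 7, against 21.3% of all genes. Irf4, a lymphocyte factor, had at most 6 counts in any library.

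**Figure D2:**
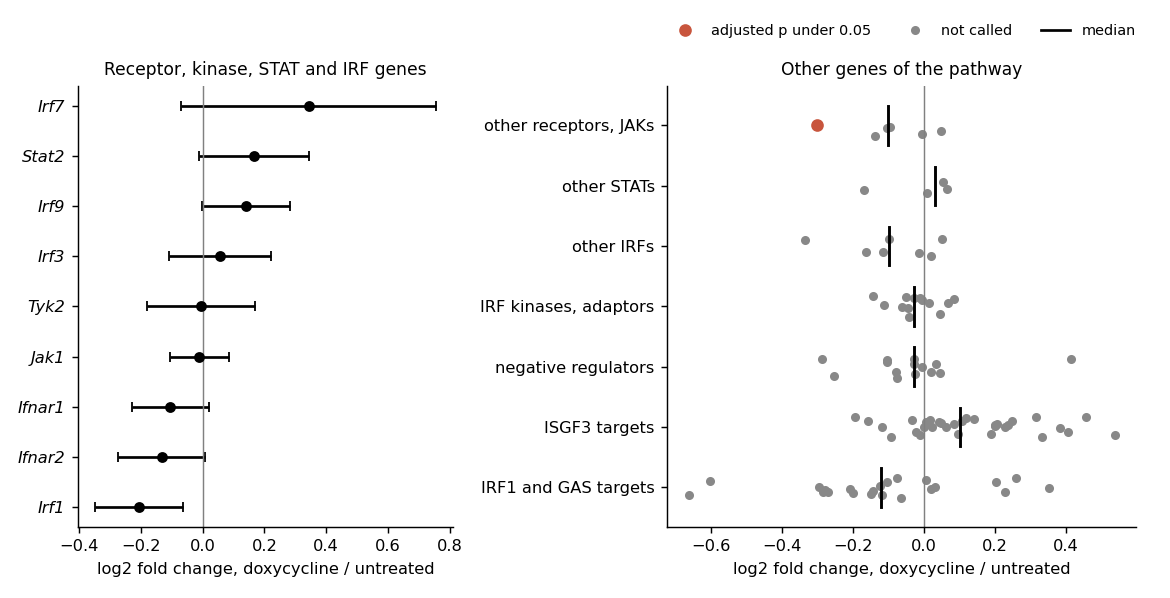
Left, log2 fold change (doxycycline over untreated, horizontal axis) of the 9 genes with 95% intervals, of which only that of Irf1 lies apart from 0. Right, log2 fold changes of the other pathway genes by list, each point a gene and each bar a median. Jak2 at -0.30 is the single gene past the adjusted threshold (red).

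Levels of different genes were compared per kb of exon (GENCODE M21, coding transcripts). In untreated libraries the order was Jak1 (28.7 ± 0.961 CPM per kb, SD, n = 3), Ifnar1 (17.1 ± 0.452) and Ifnar2 (11.8 ± 0.167). Then came Irf1 (10.3 ± 0.371), Irf3 (9.98 ± 0.546) and Irf9 (9.4 ± 0.342). Irf7 (5.71 ± 0.694), Stat2 (5.06 ± 0.164) and Tyk2 (3.18 ± 0.0594) were lowest. Irf1 and Irf3 overlapped in range, as did Irf3 and Irf9, and Irf7 and Stat2. The other neighbours in this order did not overlap. With doxycycline Irf1 stood at 8.9 ± 0.5 CPM per kb, below Irf3 and Irf9 at 10.4 ± 0.538 and 10.4 ± 0.327, with no overlap of the ranges. Irf7 with doxycycline spanned 5.38 to 9.49 CPM per kb and overlapped Irf1 and Stat2. The 2 kinases thus stood at the ends of the order, and the receptor chains stood above every IRF and Stat2 in untreated cells. In bulk RNA a change in the share of cells that express a gene and a change in RNA per cell cannot be told apart.

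Doxycycline libraries differed from each other over the whole table. Chi-square per degree of freedom was 22.1 for replicates 1 and 2, 14.5 for 2 and 3, and 6.85 for 1 and 3. They also differed in the genes that ISGF3 controls. A list of 32 such targets (Ifit, Oas, Mx and Isg15 among them) had mean levels of 4.10, 4.21 and 4.19 log2 CPM in untreated libraries. In doxycycline libraries the means were 4.30, 4.51 and 4.01 log2 CPM. Replicate 2 held the highest value for 25 of the 32 genes, and replicate 3 the lowest for 20. The same shares over all genes were not computed, so the spread is not shown to be particular to these targets. Irf7 and Stat2 had the same order among doxycycline libraries, replicate 2 above replicate 1 above replicate 3. Against the untreated mean, replicate 2 was 0.74 higher for Irf7, 0.31 for Stat2 and 0.17 for Irf9 on the log2 scale. Replicate 3 differed by -0.08, -0.03 and 0.09 for the same genes. Irf9 was thus above the untreated mean in the library with the lowest target levels too. Usp18, an interferon-induced brake on the receptor, had 11.7 CPM in doxycycline replicate 2 against 7.05 and 6.06 CPM in replicates 1 and 3. No batch or date was given in the labels.

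**Figure D3:**
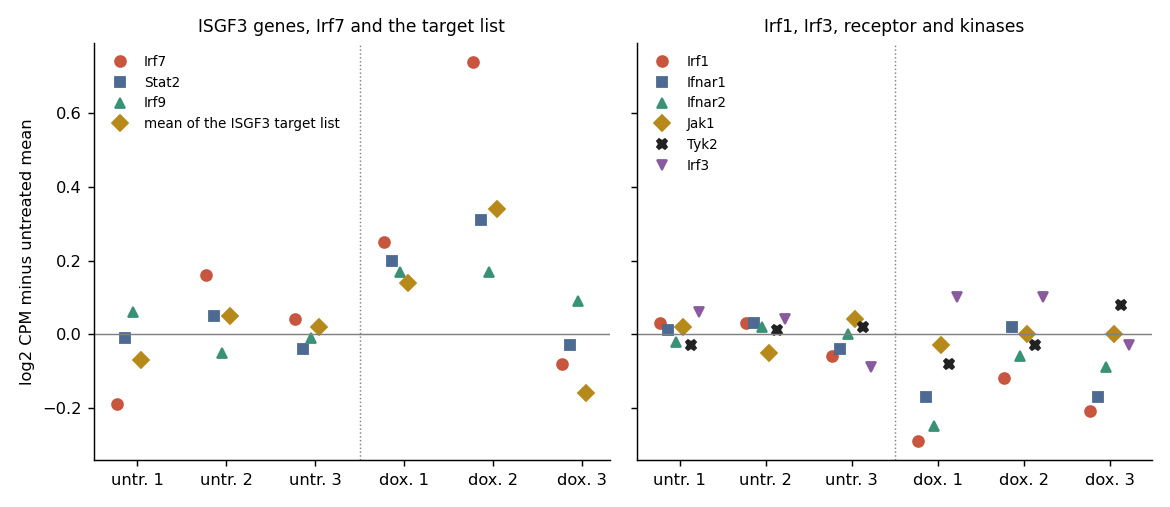
Difference of log2 CPM from the untreated mean (vertical axis) in each of the 6 libraries. Left, Irf7, Stat2, Irf9 and the mean of 32 ISGF3 targets, which are highest in doxycycline replicate 2, where Irf9 is level with replicate 1 at 0.17; right, Irf1, the receptor chains, the kinases and Irf3, with Irf1 between -0.29 and -0.12 in doxycycline libraries.

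Of these 32 targets 0 were called by edgeR, with 7 at an unadjusted p under 0.05 (DESeq2 0 and 5, limma voom 0 and 8). Of all genes 16.2% had an unadjusted p under 0.05 by edgeR. The median log2 fold change of the 32 was 0.10, with 25 above 0, against 6641 of all 13084 genes tested. The smallest p belonged to Ifi27 (-0.16, edgeR adjusted p 0.0889), Oas2 (0.54, edgeR adjusted p 0.156) and Oasl1 (0.25, edgeR adjusted p 0.195). Leaving out doxycycline replicate 2 gave a median of -0.02, with 0 called higher and 1 lower, and leaving out replicate 3 gave 0.18, with 5 higher and 0 lower. With no filter on low counts 4 were called higher, against 210 of all 17661 genes tested. Over all genes, leaving out replicate 2 gave 269 higher and 487 lower of 13237 tested. Leaving out replicate 3 gave 66 and 149 of 13225. Ifit3 and Oas1a have near-identical copies, so their own values are uncertain. The 22 tested targets of IRF1 or GAS-bound factors had a median of -0.12, with 15 below 0 and 0 called (edgeR, with 4 at an unadjusted p under 0.05; DESeq2 0 and 4, limma voom 0 and 5). Psmb8, an immunoproteasome subunit, had 19.1 ± 0.604 and 15.8 ± 1.34 CPM with no overlap (log2 fold change -0.27, edgeR adjusted p 0.107). B2m, the light chain of MHC class I, had 489 ± 21 and 455 ± 5.85 CPM, also with no overlap (-0.10, edgeR adjusted p 0.238). Irgm1, an interferon-induced GTPase, had 28.4 ± 0.965 and 32.7 ± 4.07 CPM (0.20, edgeR adjusted p 0.212). Without doxycycline replicate 2 the list's median was -0.20, with 2 genes called lower. Without doxycycline replicate 3 it was -0.06, with 9 of 21 tested genes above 0 and 0 called.

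Neither the steps upstream of IRF3 and IRF7 nor the brakes of the pathway gave a call. Of 13 kinases and adaptors that activate IRF3 and IRF7, 0 were called and 0 had an unadjusted p under 0.05 (edgeR, DESeq2 and limma voom), with a median of -0.03. Ikbke, a kinase of IRF3 and IRF7, had the smallest p (-0.14, edgeR adjusted p 0.367). Without doxycycline replicate 2 the list had 1 gene called lower, against 487 of all 13237 genes tested. Tbk1, a close relative of Ikbke, had 50.5 ± 3.01 and 50.2 ± 4.26 CPM (edgeR adjusted p 0.976). Of 14 negative regulators 0 were called (edgeR 0 at an unadjusted p under 0.05, DESeq2 0 and 1, limma voom 0 and 0), with a median of -0.03. Usp18 stood 0.41 higher on the log2 scale without passing (SE 0.20, edgeR adjusted p 0.311), and Socs1, which blocks JAK activity, one of -0.02 (edgeR adjusted p 0.962).

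**Figure D4:**
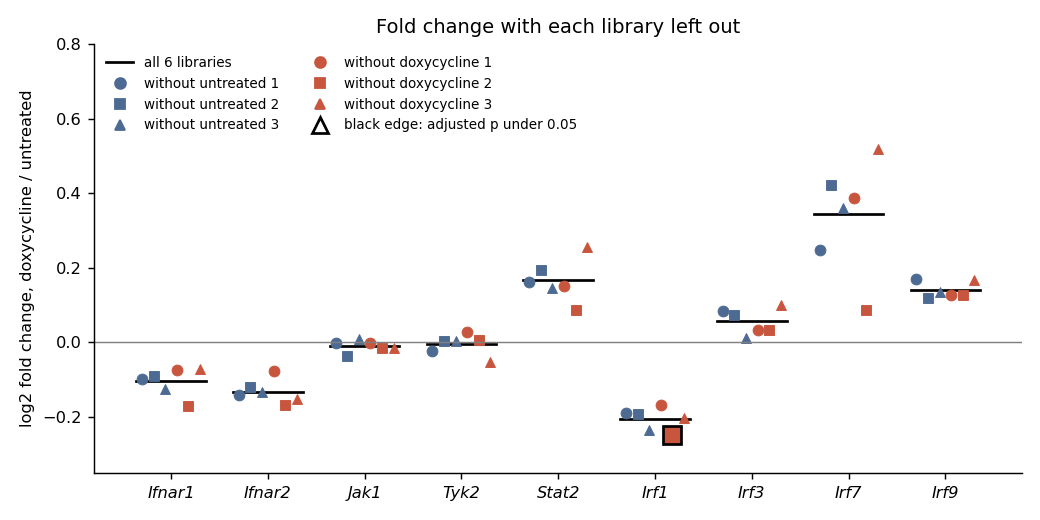
Log2 fold change of each gene (vertical axis) with all 6 libraries (bar) and with each library left out (points). Irf7 ranges from 0.09 to 0.52 and Stat2 from 0.09 to 0.26, while Irf1 stays between -0.25 and -0.17 and passes the adjusted threshold only without doxycycline replicate 2 (black edge).

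The genes whose log2 CPM followed a member most closely over the 6 libraries are given by Pearson's r among 11656 candidates, as a description. For Irf7 they were Tbc1d2 (0.996), Nrde2 (0.993) and Zfand2b (0.991), and 26 genes exceeded 0.95. For Stat2 they were Acrbp (0.998), Erc2 (0.995) and Paxip1 (0.978), with 21 over 0.95. For Irf1 they were Amotl1 (0.997), Xpnpep2 (0.997) and Tsen34 (0.993), with 69 over 0.95. For Irf9 they were Psmc1 (0.990), Ormdl3 (0.989) and Ccdc77 (0.984). For Ifnar1 they were Sptbn1 (0.999), Lrp1 (0.998) and Iqgap1 (0.995), and for Ifnar2 Sorcs2 (0.983), Sh3bp4 (0.981) and Rhbdd2 (0.978). With 6 points that share 2 groups, many genes reach such values.

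Library totals ran from 31653464 to 43631312 counts, and their ranges overlapped between groups, so 3 counts stood for 0.0688 to 0.0948 CPM. Intervals and floors cover counting error and the spread of these libraries only, and the labels do not say whether replicates were separate cultures. The 9 genes had at least 493 counts in every library. Of 6 epithelial markers, Krt18, Krt8 and Cdh1 were abundant, at 633 ± 7, 410 ± 10.3 and 309 ± 9.07 CPM untreated. Krt19 (63.5 ± 2.15 CPM), Epcam (33.2 ± 1.36 CPM) and Krt14 (3.04 ± 0.512 CPM) stood below them. Of the 6, 1 was called (Krt19, lower, -0.31, edgeR adjusted p 0.00782). Summed leukocyte markers came to 9.38 to 11.7 CPM untreated and 8.85 to 11 CPM with doxycycline, nearly all from Cd68, with Adgre1 and Siglech at 0 in all libraries and Ptprc at 21 counts or fewer. Summed fibroblast markers came to 35.7 to 38.6 CPM untreated and 27.9 to 29.6 CPM with doxycycline. Nearly all of it was Pdgfra, called lower (-0.40, edgeR adjusted p 0.000952), while Col1a1 and Col1a2 were under 1 CPM and Dcn at 4 counts or fewer. Its part in the differences above was not tested.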

How the data were processed

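Total RNA of 6 libraries was depleted of ribosomal RNA, prepared with a dUTP strand-marking kit and sequenced. The authors aligned reads to mm10/GRCm38 with STAR and counted them per gene with featureCounts, and deposited raw counts, with replicates kept apart. The submitters' processing notes also name bcl2fastq 2.20 and Subread 1.6.2. The strand setting and the handling of reads with several hits are not given in the sources used here, so reads of overlapping or near-identical genes may be lost or misassigned. All 6 columns were matched by library code.

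The quasi-likelihood test of edgeR 4.0.16 (R 4.3.3, robust, TMM, filterByExpr, group as the only term) was fitted on the whole table, with Benjamini-Hochberg adjustment over 13084 genes and a threshold of 0.05. The study used DESeq2. SE is the absolute log2 fold change over the root of F, and 95% intervals use edgeR's total degrees of freedom. Log2 CPM used a prior count of 2. Replicate pairs differed by more than sampling noise (chi-square per degree of freedom 6.14 to 22.1), so each library was counted once. p-values set each difference against the spread between these libraries, which edgeR draws towards the trend over all genes. That spread may be technical. Exon lengths are unions over GENCODE M21 basic coding transcripts. Coordinates and promoter sequences are from RefSeq (GRCm38.p6), counted from 1.

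The 9 genes and the pathway lists were chosen with earlier results of these data known, so lists are described by counts and medians and no p is given over a list. Named genes were the 9, each list's genes past the threshold and up to 3 with the smallest p, and the 3 genes most correlated with each member (mean of at least 1 CPM). Others, such as Tbk1, Socs1, Rnf31 and Ifna13, were named after their values were seen. Alternatives were other scalings (size factors of DESeq2, upper quartile, or library totals alone), other filters (none, or 10 counts or more in each library), a replicate block, the removal of 1 library at a time, and other tests (DESeq2 1.42.0 Wald and limma 3.58.1 voom). The fit was tested on simulated counts whose set changes were larger than those of the 9 genes. That test does not bear on changes of their size. A gene of the pathway lists is not reported here.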

Additional observations from a re-analysis of the deposited data

How the results depend on the processing

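The 9 genes gave 0 calls in either direction in 12 of 14 alternatives. The exceptions were Irf7, with 1 member called higher without a filter, and Irf1, with 1 called lower without doxycycline replicate 2, so that over the fits leaving out each library the members called lower ran from 0 to 1. The cause was not tested. In those fits Tyk2 ran from -0.0528 to 0.0268 and Jak1 from -0.0361 to 0.00783, both changing sign, while the other 7 genes kept their direction in all 14 alternatives. Whether the replicate numbers pair libraries across the groups was not settled. Over all tested genes, deviations of same-numbered libraries from their group means correlated at -0.0399, -0.00449 and 0.0176. With 3 libraries a group, such values cannot decide it. With a replicate block 0 members were called, and the log2 fold changes of Irf7 and Irf1 were 0.31 (edgeR adjusted p 0.143) and -0.21 (edgeR adjusted p 0.133), and 1 of the 32 ISGF3 targets was called higher. Over all genes 121 were called higher and 283 lower. Leaving out libraries gave 44 to 269 higher and 116 to 487 lower, no filter 210 and 439, and the DESeq2 Wald test 185 higher. Under the other scalings the median of all genes ran from -0.00742 to 0.0025. A gene that was not called may still differ by an amount within its stated interval. No detection limit was computed.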

Other observations

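The ratio of Irf1 to Irf9 counts within a library needs no scaling between libraries. It was 1.16, 1.24 and 1.13 in untreated libraries and 0.858, 0.958 and 0.955 in doxycycline libraries, with no overlap. In CPM all doxycycline values of Irf1 lay below and all of Irf9 above the untreated ones, so the ratios could not overlap. This pair was picked after those values were seen, so no test was run and the ratio adds nothing separate. The ratio of Stat2 to Irf9 counts was 0.73, 0.818 and 0.745 untreated and 0.782, 0.84 and 0.703 with doxycycline, and the groups overlapped. The ratio of Ifnar1 to Ifnar2 counts was 1.83, 1.79 and 1.73 untreated and 1.9, 1.88 and 1.69 with doxycycline, and also overlapped.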
